A study of Mus musculus with 6 samples.

Results

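Claudins are the membrane proteins that build the strands of tight junctions between epithelial cells, and 10 claudin genes were followed here, out of 19616 genes counted in jejunal epithelium. They are Cldn1, Cldn2, Cldn3, Cldn4, Cldn6, Cldn7, Cldn8, Cldn12, Cldn15 and Cldn23, taken by gene symbol. RNA was sequenced from jejunal intestinal epithelial cells (IEC) enriched with EDTA, with 1 library per mouse. The 3 control mice (C1, C3 and C3-3) were wild-type, and the 3 Hdac1/2-deleted mice (H1, H5 and H9) are labelled as lacking both Hdac1 and Hdac2 in IEC (villin-Cre Hdac1-/-; Hdac2-/-). All were 3 months old and of mixed strain (C57BL/6J X 129SV X CD1). Hdac1 and Hdac2 encode histone deacetylases, enzymes that remove acetyl groups from histones and other proteins. The villin promoter drives Cre in epithelial cells from the crypt to the villus, so any other cell type left in an EDTA fraction keeps both genes.

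A claudin spans the membrane and pairs with claudins of the neighbouring cell, and the mixture of claudins sets which ions and solutes cross between cells. Sealing claudins such as Cldn3 and Cldn4 tighten this route, whereas Cldn2 and Cldn15 form pores for small cations, and Cldn2 also passes water. In the small intestine the pores let sodium return to the lumen, where it is needed for the uptake of sugars and amino acids together with sodium.

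Between 58017009 and 65902344 reads per control mouse and between 36111035 and 65230566 per Hdac1/2-deleted mouse were counted on genes. Expression is given as CPM, a gene's counts scaled by the library total and the TMM factor of edgeR, as mean ± SD (n = 3 mice). A level of 3 counts, taken as the smallest that can be shown, was worth 0.0405 to 0.0790 CPM, and this floor covers counting error only. Genes were tested with edgeR's quasi-likelihood test, which is the source of each log2 fold change, standard error (SE) and adjusted p below, with Benjamini-Hochberg adjustment over the 15618 genes that passed a filter on low counts. Calls of increase or decrease needed an adjusted p no higher than 0.05 together with a 2-fold difference.

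The targeted genes were examined first. Hdac1 was at 39.1, 34.5 and 48.9 CPM in C1, C3 and C3-3 and at 3.97, 2.53 and 4.81 CPM in H1, H5 and H9, with a log2 fold change of -3.43 (SE 0.26, adjusted p = 2.9e-05). Hdac2 was at 32.9, 23.6 and 26.5 CPM in control mice and at 26.6, 25.4 and 21.4 CPM in Hdac1/2-deleted mice, and the groups overlapped (log2 fold change -0.18, adjusted p = 0.44). Library totals alone gave 0.0069 for Hdac2. Hdac1 thus separated the groups and Hdac2 did not. The counts cover whole genes, and the exons removed are not given in the sources used here, so the Hdac2 count does not check that deletion.

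Of the 10 claudins, 9 passed the filter on low counts and Cldn1 did not. In Hdac1/2-deleted IEC, 2 of these 9 were called increased, Cldn2 and Cldn6, where 12.4% of all tested genes were increased, and 1 was called decreased, Cldn15, where the share over all genes was 12.7%. Without the 2-fold limit Cldn3 joined them, so 4 of 9 claudins had an adjusted p of at most 0.05 against 40.8% of all tested genes. The levels of the groups did not overlap for 5 claudins, which were Cldn2, Cldn6 and Cldn12, higher after deletion, and Cldn3 and Cldn15, lower. Over all tested genes that share was 53.2%. The shares of the claudins are therefore near those of the whole table in decreases and in overlap. Cldn6 and Cldn8 reached the filter's level of 0.163 CPM (scaled by library totals, without the TMM factor) in 3 Hdac1/2-deleted mice and 1 control mouse each, so they were tested because of the group in which they were higher. The same holds for Magi2, Pard6g, Pvrl4, Cldnd2, Grik1 and Tff2 among the called genes named below, while Myl9, Acta2 and Myh11 were tested because of the control mice. Scaling by library totals alone shifted the median log2 fold change of all tested genes by 0.19 and gave 2463 increased and 1538 decreased genes in place of 1944 and 1990. The called claudins were the same under that scaling, with log2 fold changes of 4.18 for Cldn2, 4.27 for Cldn6 and -1.10 for Cldn15.

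**Figure D1:**
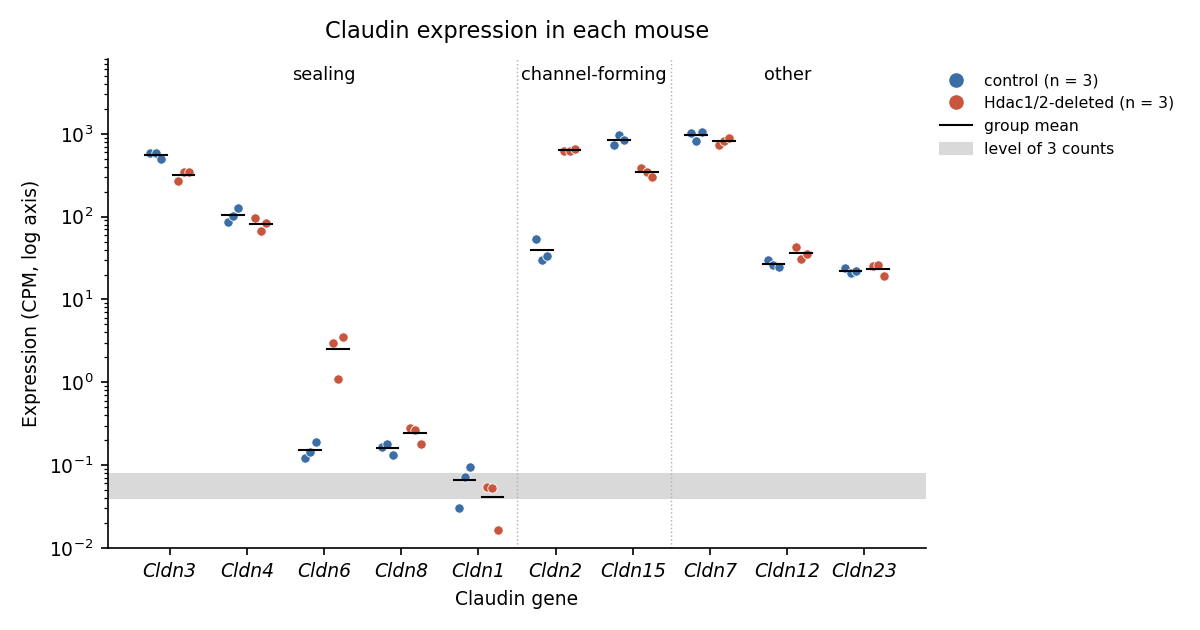
Expression of the 10 claudins in each mouse, in CPM on a log axis, with control mice in blue, Hdac1/2-deleted mice in red, black bars for group means (n = 3) and a grey band for the level of 3 counts in the 6 libraries. Cldn2 lies at 29.6 to 53.9 CPM in the control group and at 614 to 663 CPM after deletion, and Cldn1 lies in or near the grey band in both groups.

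The channel-forming claudins moved in opposite directions. Cldn2 (ENSMUSG00000047230; chromosome X, 139800828 to 139811386, plus strand, GRCm38), whose protein forms a pore for sodium and water and is best known from crypts, was at 53.9, 29.6 and 33.7 CPM in C1, C3 and C3-3. It was at 621, 614 and 663 CPM in H1, H5 and H9. The 3 Hdac1/2-deleted mice lay close together and far above every control mouse, with raw counts of 23309 to 46010 against 1646 to 3570. The mean rose from 39.1 ± 13.0 to 633 ± 26.8 CPM, a 16.2-fold difference with a log2 fold change of 4.02 (SE 0.25, 95% confidence interval 3.45 to 4.58, adjusted p = 1.0e-05).

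Cldn15 (ENSMUSG00000001739; chromosome 5, 136966616 to 136975858, plus strand), the other cation pore and the usual partner of Cldn2 in the small intestine, was at 740, 971 and 846 CPM in C1, C3 and C3-3. It was at 388, 349 and 298 CPM in H1, H5 and H9. Each Hdac1/2-deleted mouse was below each control mouse. The mean fell from 852 ± 115 to 345 ± 44.8 CPM, a 2.47-fold difference with a log2 fold change of -1.30 (SE 0.17, 95% confidence interval -1.70 to -0.91, adjusted p = 0.00049). Since each library is a mixture of cells, fewer cells that express a claudin and less of its RNA per cell cannot be told apart. Added together, the 2 pore-forming genes stood at 794 to 1000 CPM in control and at 962 to 1009 CPM in Hdac1/2-deleted mice, and these ranges overlap. This sum is not scaled by length. Cldn2 has 3325 bases of annotated exon and Cldn15 has 2124, so Cldn2 weighs more in the sum. It therefore does not show that the number of transcripts of the pair was kept.

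Compared per length, as CPM per kb of annotated exon, Cldn2 stood at 11.8 ± 3.91 in control IEC and Cldn15 at 401 ± 54.2. In Hdac1/2-deleted IEC the values were 190 ± 8.05 for Cldn2 and 162 ± 21.1 for Cldn15. The ratio of Cldn2 to Cldn15 on this scale was 0.0465, 0.0195 and 0.0255 in C1, C3 and C3-3 and 1.02, 1.12 and 1.42 in H1, H5 and H9. Control IEC thus held far more Cldn15 than Cldn2, and in each Hdac1/2-deleted mouse Cldn2 was the more abundant of the pair.

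The sequence before the start of transcription is shown for the 3 of the 10 claudins that were called, since Cldn2 and Cldn6 moved together and Cldn15 moved the other way. RefSeq promoters were found for 8 of the 10 claudins, and the 250 bases before each RefSeq start on GRCm38.p6 were searched. The stretches shown are on the plus strand and stop where GENCODE annotates an exon of the gene, so that all 250 bases are shown for Cldn2, 225 for Cldn15 and 134 for Cldn6. The window of Cldn15 lies after the first start that GENCODE gives for that gene. The stretches are chrX:139800558-139800807 for Cldn2, chr5:136967619-136967843 for Cldn15 and chr17:23679115-23679248 for Cldn6. The sequences run 5′ to 3′ in lower case, and capitals mark a match to a motif.
Cldn2: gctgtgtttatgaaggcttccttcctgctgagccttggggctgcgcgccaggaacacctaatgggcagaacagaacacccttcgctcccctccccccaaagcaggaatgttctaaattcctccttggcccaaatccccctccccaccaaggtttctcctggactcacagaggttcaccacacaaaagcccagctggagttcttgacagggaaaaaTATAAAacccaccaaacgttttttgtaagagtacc
Cldn15: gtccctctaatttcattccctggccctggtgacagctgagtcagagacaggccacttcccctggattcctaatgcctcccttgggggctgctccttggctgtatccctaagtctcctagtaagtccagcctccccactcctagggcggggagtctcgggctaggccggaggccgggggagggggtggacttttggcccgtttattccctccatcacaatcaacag
Cldn6: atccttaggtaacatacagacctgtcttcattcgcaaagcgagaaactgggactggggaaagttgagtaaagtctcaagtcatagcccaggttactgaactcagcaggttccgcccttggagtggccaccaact
Among the motifs searched on both strands were the TATA box spelled TATAAA, the CDX site spelled TTTATGG, the site for GATA factors spelled GATAAG, the HNF4 site spelled CAAAGTCCA and the STAT site spelled TTCNNNGAA. The window of Cldn2 held a TATA box from base 35 to base 30 before the start, a motif found in 12.4% of 32851 promoter windows of the same length. The full windows of Cldn15 and Cldn6 held none of these motifs, of which those other than the TATA box were present in 2.43% (CDX), 6.55% (GATA), 0.384% (HNF4) and 7.02% (STAT) of all windows. Claudins that were not called held matches too, with a STAT site in 1 window of Cldn7 and 2 of Cldn12. The 2 windows of Cldn12 overlap, and their matches are the same bases. A STAT site was also held by 1 window of Cldn14, a further claudin described below. Over the 250 bases the share of G and C was 52.0% before Cldn2, 60.8% before Cldn15 and 53.6% before Cldn6, with a median of 52.4% over all windows. The observed over expected number of CpG pairs was 0.250, 0.303 and 0.501 in the same order, with a median of 0.373. A match is only a run of letters, and binding was not measured.

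Of the sealing claudins, Cldn6 was called increased, Cldn3 was lower by less than 2-fold, Cldn4 and Cldn8 were not called, and Cldn1 was at the floor. Cldn6 (ENSMUSG00000023906; chromosome 17, 23679249 to 23682446, plus strand), a claudin of embryonic epithelia that is scarce in adult tissue, had 8, 8 and 10 counts in C1, C3 and C3-3. It had 222, 42 and 218 counts in H1, H5 and H9, equal to 3.00, 1.11 and 3.54 CPM. The groups did not overlap, and H5, the library with the fewest reads, was the lowest of the Hdac1/2-deleted mice. The mean rose from 0.151 ± 0.0342 to 2.55 ± 1.28 CPM (log2 fold change 4.07, SE 0.52, 95% confidence interval 2.89 to 5.26, adjusted p = 0.00041), and a prior count of 2 gave 3.81. The log2 fold changes of Cldn6 and Cldn2 lay within each other's intervals, but the level after deletion was 1.48 ± 0.743 CPM per kb, against 190 ± 8.05 for Cldn2.

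Cldn3 (ENSMUSG00000070473; chromosome 5, 134986214 to 134987472, plus strand), a barrier claudin found along the whole gut, was at 582, 588 and 495 CPM in C1, C3 and C3-3. It was at 272, 344 and 347 CPM in H1, H5 and H9. Each Hdac1/2-deleted mouse was below each control mouse. The log2 fold change was -0.79 (SE 0.16, 95% confidence interval -1.16 to -0.43, adjusted p = 0.0043), a 1.73-fold difference that passes the adjusted p limit and stays under the 2-fold limit. The annotation places 40 bases of an antisense gene, Wbscr25, over the exon of Cldn3, and whether the reads were counted by strand is not given in the sources used here.

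Cldn4 (chromosome 5, 134945119 to 134946934, minus strand), the neighbour of Cldn3 and like it a receptor for a clostridial enterotoxin, was at 86.2 to 128 CPM in control and at 67.4 to 96.8 CPM in Hdac1/2-deleted mice. These ranges overlap, and the log2 fold change of -0.35 (95% confidence interval -0.77 to 0.08, adjusted p = 0.18) was not called. Cldn8, a claudin of the distal colon and the kidney tubule, was barely detected, with 7 to 11 counts in control and 10 to 21 counts in Hdac1/2-deleted mice. Its interval ran from -0.43 to 1.61, so an increase of 2-fold lay inside it and a decrease of 2-fold outside. Cldn1, which is needed for the barrier of the skin, had 2, 4 and 5 counts in control and 4, 2 and 1 counts in Hdac1/2-deleted mice, and no fold change is given.

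The remaining members have less settled roles. Cldn7 (ENSMUSG00000018569; chromosome 11, 69964779 to 69967885, plus strand), which lies largely on the basolateral membrane of IEC and binds EpCAM, was at 812 to 1057 CPM in control and at 734 to 902 CPM in Hdac1/2-deleted mice. The log2 fold change of -0.23 (95% confidence interval -0.62 to 0.16, adjusted p = 0.31) was not called. Cldn12, which has been tied to paracellular calcium passage, was at 30.2, 26.2 and 24.4 CPM in control and at 42.7, 30.8 and 34.9 CPM in Hdac1/2-deleted mice. The groups lay close without overlap, and the log2 fold change of 0.42 (SE 0.17, 95% confidence interval 0.05 to 0.80, adjusted p = 0.069) did not pass the limit. Cldn23, a claudin of differentiated epithelium in the gut, was at 20.8 to 24.1 CPM in control and at 19.2 to 25.9 CPM in Hdac1/2-deleted mice (log2 fold change 0.07, 95% confidence interval -0.30 to 0.45, adjusted p = 0.76). For Cldn4, Cldn7 and Cldn23 the intervals leave out changes of 2-fold or more in either direction.

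**Figure D2:**
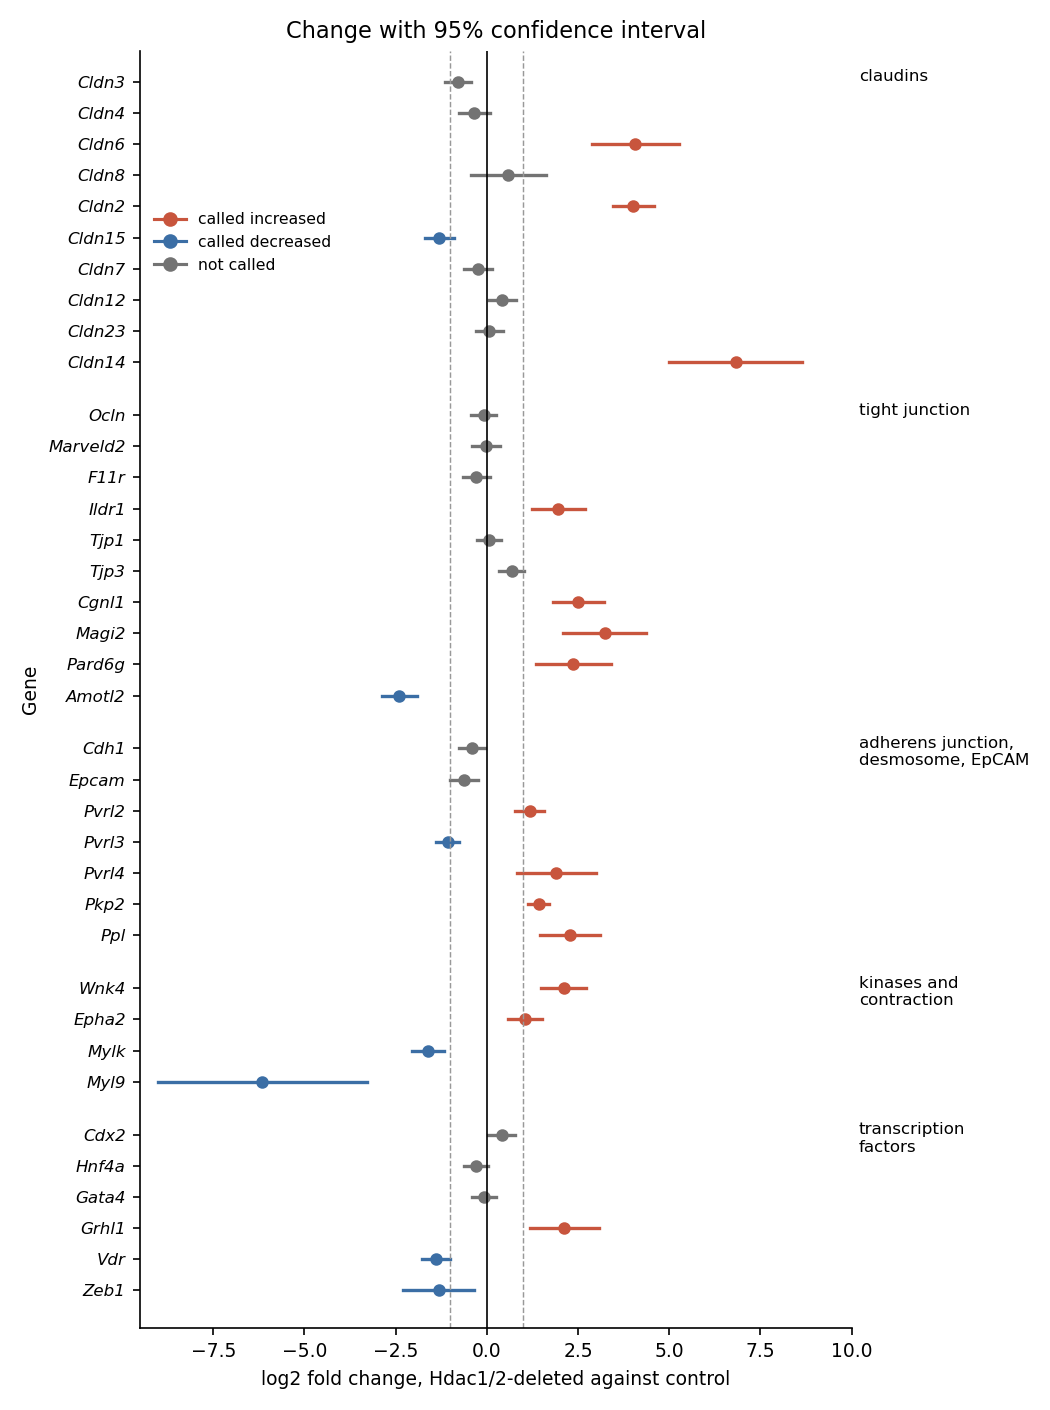
Log2 fold change of Hdac1/2-deleted against control IEC with its 95% confidence interval (edgeR, n = 3 mice per group) for the 9 tested claudins, for Cldn14 and for junction and regulator genes taken whether called or not or because they were called, with dashed lines at 2-fold. Cldn2 (4.02), Cldn6 (4.07) and Cldn14 (6.82) lie far to the right, and Cldn15 (-1.30) lies to the left together with Vdr (-1.40).

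The composition of claudin mRNA was then compared per length. In control IEC the order was Cldn7 (494 ± 67.6 CPM per kb), Cldn3 (441 ± 41.3), Cldn15 (401 ± 54.2), Cldn4 (57.7 ± 11.6), Cldn23 (12.1 ± 0.910), Cldn2 (11.8 ± 3.91) and Cldn12 (6.37 ± 0.702). The mice's values overlapped among the first 3 of these and between Cldn23 and Cldn2. In Hdac1/2-deleted IEC the order was Cldn7 (421 ± 43.1), Cldn3 (255 ± 33.6), Cldn2 (190 ± 8.05), Cldn15 (162 ± 21.1), Cldn4 (45.4 ± 8.09), Cldn23 (12.7 ± 2.02) and Cldn12 (8.55 ± 1.42). The mice's values for Cldn2 (185 to 199) and Cldn15 (140 to 183) did not overlap there, nor did those of Cldn2 and Cldn4 (37.1 to 53.3). Cldn6, Cldn8 and Cldn1 were the lowest in both groups.

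As a share of the summed claudin signal, Cldn2 made up 0.626% to 1.14% in the control group and 16.7% to 17.9% after deletion. Cldn15 made up 24.6% to 32.1% and then 12.3% to 17.5%, and Cldn3 27.5% to 32.8% and then 20.7% to 24.7%. The share of Cldn7 was 34.7% ± 4.69 in control and 38.3% ± 2.12 in Hdac1/2-deleted mice, with overlapping ranges. The sum over the 10 claudins was 1418, 1423 and 1433 CPM per kb in C1, C3 and C3-3 and 1041, 1103 and 1145 CPM per kb in H1, H5 and H9. The total was thus lower in each Hdac1/2-deleted mouse although Cldn2 was far higher. These shares assume the full annotated exon length for each gene and were not tested.

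**Figure D3:**
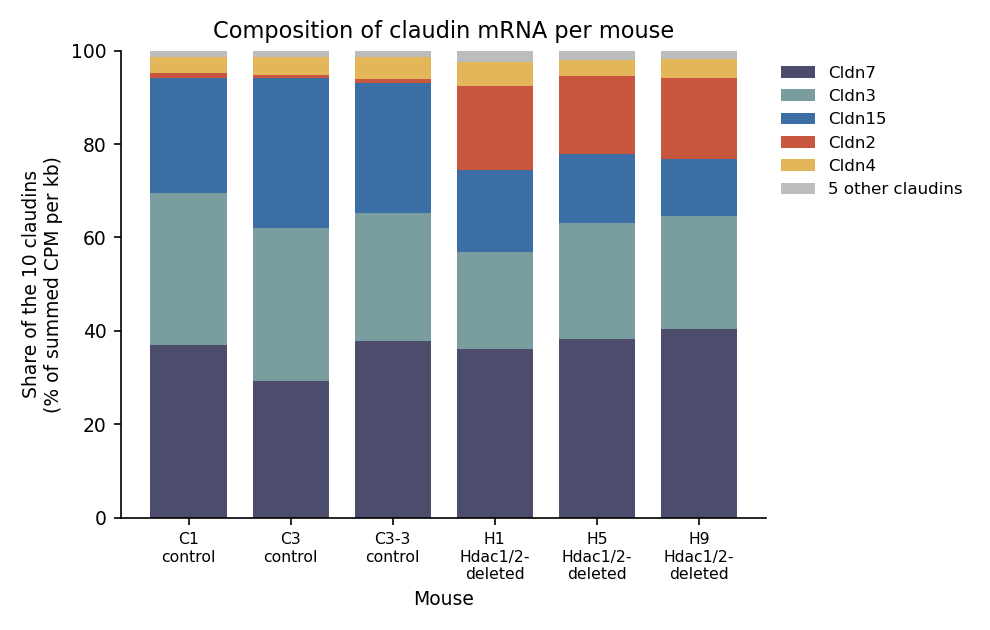
Share of each claudin in the summed CPM per kb of the 10 claudins, as stacked bars in percent for each of the 6 mice. The Cldn2 segment is at most 1.14% in the control mice and at least 16.7% in the Hdac1/2-deleted mice, and the Cldn15 segment shrinks from at least 24.6% to at most 17.5%.

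The deposited table holds 5 further claudin genes, of which only Cldn14 passed the filter, reaching its level in 3 Hdac1/2-deleted mice and in no control mouse, so that it was tested because of the group in which it was higher. Cldn14 (ENSMUSG00000047109; chromosome 16, 93919031 to 94008837, minus strand), known from the inner ear and the kidney, had 0, 2 and 4 counts in C1, C3 and C3-3. It had 229, 271 and 149 counts in H1, H5 and H9, equal to 3.09, 7.13 and 2.42 CPM. It was called increased (log2 fold change 6.82, SE 0.80, adjusted p = 3.0e-04), but with so few control counts the fitted value depends on the prior count and was 5.92 with a prior count of 2. It was 7.82 without control mouse C3-3, 6.20 without C1 and 6.22 without H5. The level after deletion was 1.98 ± 1.20 CPM per kb, close to that of Cldn6. Cldn5, the claudin of blood vessels, had 1 to 7 counts per library, and Cldn18, the claudin of stomach and lung, had 0 to 7. Cldn9 had 1 to 15 counts and Cldn20 had 3 to 13, with both groups overlapping for each of these 4 genes. Cldn9 lies 0.138 kb beyond the end of Cldn6 on the other strand, and its groups overlapped. Outside the claudin family proper, the claudin domain genes Cldnd1 and Cldnd2 were chosen after their values were seen. Cldnd1 was at 69.0 to 86.7 CPM in control and at 10.6 to 14.0 CPM in Hdac1/2-deleted mice (log2 fold change -2.74, adjusted p = 9.9e-06), and Cldnd2 had 2 to 8 and then 19 to 34 counts (log2 fold change 2.59, adjusted p = 0.0078).

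The genomic neighbours of the called claudins were examined in turn. The nearest tested gene after Cldn2, Morc4 at 10.2 kb, was also increased (log2 fold change 2.00, adjusted p = 0.00088). The nearest gene before Cldn2, Tbc1d8b at 47.4 kb, had a log2 fold change of -0.81 (adjusted p = 0.0050), under the 2-fold limit. Next to Cldn6, Tnfrsf12a at 1.78 kb rose from 520, 538 and 664 counts to 10669, 3561 and 7705 counts (log2 fold change 3.60, adjusted p = 1.3e-05), whereas Pkmyt1 at 43.9 kb on the far side was not called (0.22, adjusted p = 0.35). The genes beside Cldn15, Fis1 at 0.382 kb and Znhit1 at 6.31 kb, were not called (-0.41 and 0.09, adjusted p = 0.061 and 0.64). Cldn3 and Cldn4 are each other's neighbours, 39.3 kb apart, and neither was called. Cldn8 stayed near the floor although Grik1, 271 kb before it, had 0, 0 and 1 counts in control and 103, 43 and 84 counts in Hdac1/2-deleted mice. Of the other neighbours of members, Il1rap, 210 kb after Cldn1, was decreased (log2 fold change -1.14, adjusted p = 0.017), and those of Cldn7, Cldn12 and Cldn23 were not called. Beside Cldn14, Chaf1b at 12.9 kb was increased (log2 fold change 1.06, adjusted p = 0.0095) and Hlcs at 120 kb was not called.

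The genes whose log2 CPM ran most like that of Cldn6 include Smad2 and Stat6 (Pearson r of 0.995 for each over 6 mice). Those most like Cldn15 were Tmco3, Zfp747 and Pdk1 (r of 0.997, 0.996 and 0.995). The mice form 2 groups, so these coefficients describe mainly the difference between groups, and r exceeded 0.95 for 365 of 8330 genes with Cldn6 and for 463 of 8329 with Cldn15.

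Partners of claudins in the junction were set beside them as lists. The median log2 fold change of the 9 tested claudins was 0.07 (from -0.22 with at least 10 counts in every sample to 0.26 with library totals), and it was -0.0081 over all tested genes. The 10 tested transmembrane proteins of the tight junction had a median of 0.18 (0.086 to 0.38 over the alternatives). At an adjusted p of 0.05 or less, 4 were higher and 0 lower, and 1 of these was called. Over all tested genes 40.8% had such an adjusted p in either direction, and 12.4% were called increased and 12.7% decreased. The called gene was Ildr1, a protein of the corners where 3 cells meet (mean of 1.64 CPM in control and 6.43 CPM in Hdac1/2-deleted mice, log2 fold change 1.96, adjusted p = 0.0015). The others were Lsr (0.92, adjusted p = 0.0022), the most abundant gene of the list, Cxadr (0.70, adjusted p = 0.011) and Igsf5 (0.57, adjusted p = 0.019). Occludin (Ocln), which lies in the same strands as claudins, had a log2 fold change of -0.09 (adjusted p = 0.67), Marveld2 -0.03 (adjusted p = 0.92) and F11r -0.29 (adjusted p = 0.18). Scaling by library totals turned Ocln to 0.10 and Marveld2 to 0.17.

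Of 23 tested plaque and polarity proteins, which anchor claudins to the cytoskeleton and whose median was 0.29 (0.094 to 0.47 over the alternatives), 3 were increased and 1 was decreased, and without the 2-fold limit 6 were higher and 2 lower. The shares over all tested genes were 12.4% increased, 12.7% decreased and 40.8% in either direction without the 2-fold limit. The scaffolds Tjp1 and Tjp3, which bind the tails of claudins directly, were not called. Their log2 fold changes were 0.06 for Tjp1 (adjusted p = 0.77) and 0.68 for Tjp3 (adjusted p = 0.0071, under 2-fold). The increased genes were Cgnl1 (2.51), Magi2 (3.23) and Pard6g (2.37), and the decreased gene was Amotl2 (-2.39, adjusted p = 6.4e-05). Magi2 had 2 to 6 counts in control mice.

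**Figure D4:**
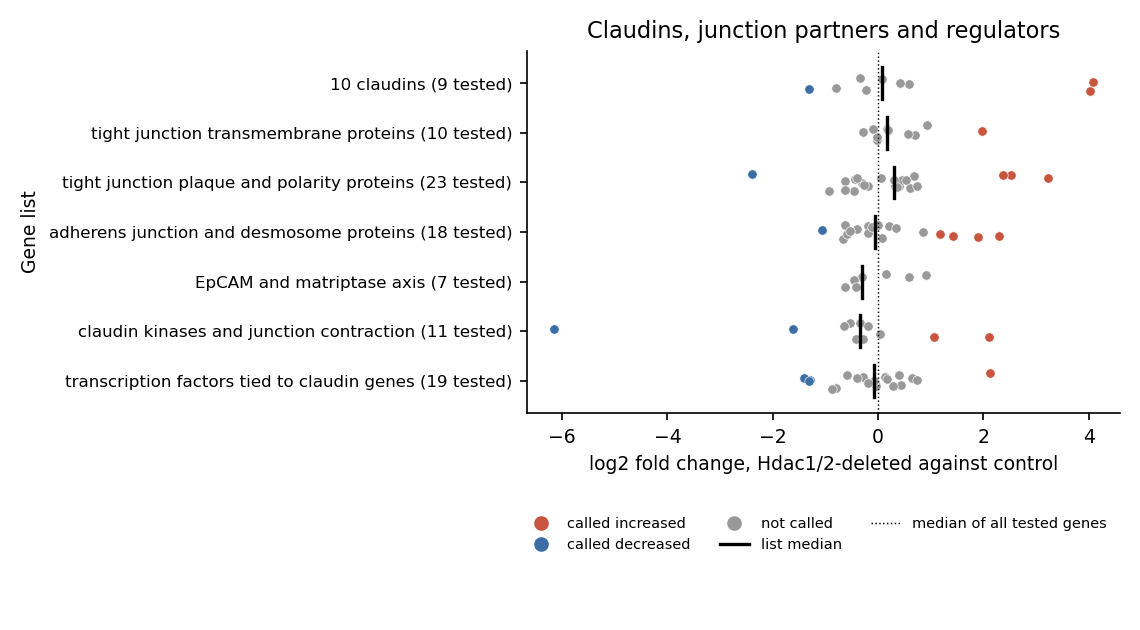
Log2 fold change of Hdac1/2-deleted against control IEC for each tested gene of the claudins and of 6 lists of junction partners and regulators, with a black bar at each list's median and a dotted line at the median of all 15618 tested genes (-0.0081). Claudin medians and partner medians lie between -0.35 and 0.29, and most genes called in either direction stand apart from the bulk of their list.

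Of 18 tested adherens junction and desmosome proteins, 4 were increased and 1 was decreased, with a median of -0.06 that turned to 0.13 with library totals. Without the 2-fold limit 5 were higher and 4 lower. Among all tested genes 12.4% were increased, 12.7% were decreased and 40.8% passed without the 2-fold limit. The increased genes were Pvrl2 (1.18), Pvrl4 (1.90), Pkp2 (1.42) and Ppl (2.29), the decreased gene was Pvrl3 (-1.07), and Cdh1, the E-cadherin on which tight junction assembly depends, was not called (-0.40, adjusted p = 0.073). Pvrl3 was under the 2-fold limit without H5 (-0.96) and with library totals (-0.88). Of the 7 genes of the EpCAM and matriptase axis, which governs the stability of Cldn7, none was called. Their median was -0.30, and it was -0.11 with library totals. Without the 2-fold limit 2 were higher (Prss8 and Tspan8) and 2 lower (Epcam and Spint2). Epcam itself, the partner of Cldn7, was at 1664 CPM in control and at 1081 CPM in Hdac1/2-deleted IEC (log2 fold change -0.62, adjusted p = 0.017), a difference below 2-fold. Epcam had an adjusted p of 0.060 with library totals, 0.057 without C3-3 and 0.072 without H5.

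Of 11 kinases and contraction genes that act on claudins or on the junction, 4 were called, 2 in each direction. The median was -0.35, and it was -0.16 with library totals. Without the 2-fold limit 2 were higher and 5 lower. For all tested genes the shares were 12.4% increased, 12.7% decreased and 40.8% without the 2-fold limit. Wnk4, a kinase that phosphorylates claudins, was increased (2.11, adjusted p = 0.00046), and so was Epha2, a receptor kinase that acts on Cldn4 (1.05, adjusted p = 0.0034), which was under 2-fold without C1 (0.98), C3 (0.91) or H9. Mylk, the myosin light chain kinase that opens the junction, was decreased (-1.61, adjusted p = 0.00034), as was Myl9 (-6.15, adjusted p = 0.0069), with 797, 480 and 30 counts in C1, C3 and C3-3 and 4 to 9 in Hdac1/2-deleted mice. Myl9 is also a smooth muscle gene, and its log2 fold change was -5.52 without C1.

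Of 19 tested transcription factors tied to claudin genes, 4 were called, 3 of them as decreased. Their median was -0.08 and turned to 0.12 with library totals, 0.10 without C1 and 0.03 without C3. Without the 2-fold limit 2 were higher and 6 lower. Across all tested genes 12.4% were increased, 12.7% were decreased and 40.8% passed without the 2-fold limit. Vdr, the vitamin D receptor, whose activity has been tied to Cldn2 and Cldn12, fell from 870 to 330 CPM (log2 fold change -1.40, adjusted p = 0.00031). Grhl1 was increased (2.13, adjusted p = 0.0035). Zeb1 was decreased (-1.31, adjusted p = 0.037), but its adjusted p was 0.12 without C3, 0.084 without C3-3, 0.12 without H1 and 0.080 without H5, and 0.055 with library totals. Cdx2, Hnf4a and Gata4, which have been tied to Cldn2 or Cldn15, were not called, with log2 fold changes of 0.41, -0.30 and -0.08 (adjusted p from 0.081 to 0.69). Gata4 was at 0.12 with library totals.

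The cell types in each fraction were read from marker lists. Beside every count of called markers below stand shares over all tested genes of 12.4% increased and 12.7% decreased. Without the 2-fold limit that share was 40.8% in either direction. Epithelial markers summed to 11329, 12006 and 13082 CPM in C1, C3 and C3-3 and to 8794, 9322 and 10800 CPM in H1, H5 and H9, with Vil1 the most abundant, so each library was rich in epithelium. Of the 6 epithelial markers Krt18 was increased and none was decreased. Without the 2-fold limit 1 was higher (Krt18) and 2 were lower (Epcam and Krt20). Claudins such as Cldn2 and Cldn15 differ between crypt and villus, so markers of both were set beside them. Of 5 villus tip markers 3 were decreased (Ada, Apoa4 and Slc28a2), and their sum, mostly Apoa4, was 34957, 47849 and 41617 CPM in control and 11492, 5201 and 7575 CPM in Hdac1/2-deleted mice. Of 6 enterocyte markers 1 was increased (Alpi) and 2 were decreased (Fabp2 and Lct), with sums, led by Apoa1, of 40612 to 42192 and 20891 to 28179 CPM.

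Of 8 crypt and proliferation markers, Mcm2 was increased and Lgr5 and Olfm4 were decreased, and their sum was 699, 500 and 513 CPM in C1, C3 and C3-3, led by Olfm4, and 507, 477 and 317 CPM in H1, H5 and H9, led by Mki67. Without the 2-fold limit 2 were higher, Mcm2 and Mcm6, and 2 lower. The part of these shifts in the values of Cldn2, Cldn15 and Cldn3 was not tested. Of 4 colon markers Car4 and Slc26a3 were decreased, with sums, led by Slc26a3, of 217 to 322 CPM in control and 71.7 to 101 CPM after deletion. Car1 of the same list went the other way without being called, with 3, 0 and 0 counts in C1, C3 and C3-3 and 16, 1261 and 72 counts in H1, H5 and H9 (adjusted p = 0.058). Of 5 stomach markers only Tff2 was tested, and it was increased, with sums of 0.0188 to 0.918 and 3.67 to 11.6 CPM. Nearly all of the sum in Hdac1/2-deleted mice was Tff2, with 256, 419 and 534 counts in H1, H5 and H9 against 1 to 6 in control, whereas Gkn1, Gkn2, Muc5ac and Tff1 overlapped between groups, and the stomach claudin Cldn18 stayed at 7 counts or fewer.

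Marker sums of other cells were below that of epithelium. Fibroblast and smooth muscle markers summed to 47.9, 29.1 and 3.71 CPM in C1, C3 and C3-3 and to 2.75, 2.03 and 5.95 CPM in H1, H5 and H9. Myh11 led in C1 and C3, Dcn in C3-3, and collagen genes in Hdac1/2-deleted mice, and Acta2, Dcn and Myh11 were decreased of 5 tested. T cell and leukocyte markers, led by Cd8a in all mice but H9, summed to 55.1, 182 and 153 CPM and to 35.7, 52.5 and 69.7 CPM in the same orders, with Cd3g and Cd8a decreased of 5. Macrophage markers, led by Csf1r in all mice but C1, summed to 8.73 ± 1.21 and 19.7 ± 7.42 CPM, and Csf1r was increased of 4. B and plasma cell markers, led by Jchain, summed to 4.91 to 61.8 and 9.66 to 31.2 CPM, and endothelial markers, led by Pecam1 in all mice but C1, to 1.39 to 4.18 and 1.74 to 3.38 CPM, with no gene called of 3 tested in each list. Glial markers, led by S100b in Hdac1/2-deleted mice, were at 0.619 CPM or less in every library. Each marker exceeded 3 counts in at least 1 library. Myh11 had at most 1 count in each Hdac1/2-deleted mouse.

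Cldn2 lies on the X chromosome, so the sex of the mice was read from the counts. Control mouse C3 had 519 counts of the Y-linked gene Ddx3y and 13 of Xist, whereas each other mouse had at most 3 counts of Ddx3y and 2413 to 6883 of Xist. Mouse C3 had the lowest Cldn2 level of the 6 mice. Without it the log2 fold change was 3.86 for Cldn2 (adjusted p = 2.2e-05), 4.05 for Cldn6, -1.19 for Cldn15 and -0.74 for Cldn3 (adjusted p = 0.012).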

How the data were processed

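The authors aligned reads with STAR to GRCm38 per the paper's methods, while the submitters' processing notes list STAR 2.4.0f1 and mm9. The counting program and annotation are not given in the sources used here. The authors deposited raw counts for 19616 genes, which were used as they stand. A further 6 columns of rescaled counts, and the authors' own fold changes and p-values, were not used.

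Counts were filtered with filterByExpr, normalized with TMM and fitted with edgeR 4.0.16 (robust quasi-likelihood, prior count 0.125) in R 4.3.3. The SE is the log2 fold change divided by the square root of F. Alternatives used DESeq2 1.42.0 and limma 3.58.1, other filters, scalings, limits and prior counts, and each mouse left out. Plots used matplotlib 3.10.9. The steps were tested on simulated data. Of the genes changed 2-fold, 28 of 54 were called, and 65 of 66 at 4-fold and 73 of 73 at 8-fold. Unchanged genes gave 3 calls. A true 2-fold change was thus often not called. Symbols held by several rows were kept apart by identifier. Positions and exon lengths came from GENCODE M21 (GRCm38), matched by identifier. Genes named were the claudins, Hdac1 and Hdac2, called junction or regulator genes with some core ones, neighbours of members, and the genes most like Cldn6 and Cldn15. Some genes that the rule names are not reported here. Members and lists were chosen with earlier results of these data known. P-values measure the spread between mice.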

Additional observations from a re-analysis of the deposited data

How the results depend on the processing

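The 9 tested claudins kept their direction in each of the 16 alternatives in which they were tested. Alternatives that changed only the limits reused the main fit, so direction could not change in them. The fit that was not robust gave the same log2 fold changes for the claudins as the main fit. Cldn2 and Cldn15 were called in all 16, and Cldn6 in the 15 that tested it. Requiring at least 10 counts in every sample left out Cldn6, so 1 claudin was then increased. Without the 2-fold limit 2 claudins were decreased (Cldn15, and Cldn3 at -0.79), and 3198 genes were increased and 3168 decreased over the whole table. Leaving out each mouse in turn gave 2 increased and 1 decreased claudin each time. The log2 fold change then ranged from 3.86 to 4.33 for Cldn2, from 3.77 to 4.43 for Cldn6, from -1.39 to -1.19 for Cldn15 and from -0.86 to -0.68 for Cldn3. The adjusted p of Cldn12 was at most 0.05 in 2 alternatives, at 0.038 with library totals and 0.042 without H5 (range 0.038 to 0.21), and the change stayed under 2-fold.

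With library totals only, Hdac2 was at 0.0069, Ocln at 0.10 (0.0988), Marveld2 at 0.17 and Gata4 at 0.12. Leaving out each mouse gave -0.16 to 0.033 for Ocln, -0.13 to 0.10 for Marveld2, -0.13 to 0.026 for Gata4 and -0.01 (-0.0123) to 0.16 for Tjp1. None of these genes was called, and the cause was not tested. Over 42 genes followed and 16 alternatives, 640 values kept direction and call, 10 reversed, 12 lost and 3 gained a call. The 640 include values from alternatives that changed only the limits, where direction was fixed in advance. Depth limits Cldn1, with 1 to 5 counts, and Cldn8, with 7 to 21. No paired analysis was made because the sample labels record no pairing of the mice.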
